A study of Homo sapiens with 4 samples.

Results

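The genes described here are 33 human genes of DNA replication, chosen by symbol and function from a list drawn up with earlier results of these data known. All 33 were found among the 59409 gene symbols of the expression table. All 33 also passed the filter on low values, at least 1 TPM in at least 2 libraries, which left 15815 genes for the test. TPM, transcripts per 1000000, is a read count divided by gene length and scaled to a fixed sum per library, so levels of different genes can be compared on it.

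The libraries came from 786-O, an established line of human renal carcinoma that lacks a functional VHL protein. A parent clone was made to express Cas9 with a lentivirus carrying a blasticidin marker. The 2 control libraries are labelled negative control with a wild-type genotype and carry Cas9 in their column names. The 2 knockout libraries are labelled DEK KO. Knockout clones came from the Cas9 cells through a second lentivirus, which carried guides against DEK and a puromycin marker, followed by sorting of single cells. No label ties a knockout library to a particular clone, states that the controls received a guide, or describes the replicates as separate cultures. The p-values measure only how far these libraries lie apart, possibly for technical reasons, and a clone and its genotype cannot be told apart. DEK is an abundant chromatin protein that binds DNA and histones, and the comparison addresses how its loss changes the transcriptome.

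Replication is prepared in G1, when the origin recognition complex, CDC6 and CDT1 load the ring of MCM2 to MCM7 onto DNA. At the start of S phase CDC45 and the GINS complex join that ring to form the active helicase, DNA polymerase alpha lays down primers, and the RFC complex loads the PCNA clamp that holds the other polymerases on DNA. Cyclin E with CDK2 and the E2F factors drive the entry into S phase, and E2F proteins are textbook activators of most of these genes. In bulk RNA, fewer cells in S phase and less of each mRNA per cell cannot be told apart.

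Because the members share this regulator, their promoters were searched for the E2F letters TTTCCCGC, TTTGGCGC, TTTCGCGC and TTTGCCGC on both strands, in RefSeq windows of 300 bases (GRCh38.p14) from 250 before to 50 after an annotated start. The windows covered 29 members, without MCM4, MCM5, GINS4 and CCNE2, and 17 of the 29 (58.6%) held at least 1 match, against 3.99% of 27305 genes with a window. Some matches on opposite strands overlap, as in TTTGGCGC followed by gaaa. Matches are shown in capitals with their flanks, read along the gene's strand. They come from the 3 members that had a match and passed the test, MCM6, POLA1 and TYMS, and from 3 members with a match whose level was not lower, MCM7, E2F1 and CDT1. MCM6 has 4 matches in 2 overlapping pairs, of which the upstream match of each pair is shown, and MCM7 and E2F1 have 2 matches each, of which the one nearer the start is shown.
MCM6, upstream pair, chr2:135876577-135876606, minus strand: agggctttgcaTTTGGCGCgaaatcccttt
MCM6, downstream pair, chr2:135876515-135876544, minus strand: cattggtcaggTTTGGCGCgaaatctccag
POLA1, chrX:24693770-24693799, plus strand: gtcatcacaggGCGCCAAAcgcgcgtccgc
TYMS, chr18:657603-657632, plus strand: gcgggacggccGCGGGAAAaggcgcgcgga
MCM7, chr7:100101388-100101417, minus strand: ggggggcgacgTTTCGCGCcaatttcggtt
E2F1, chr20:33686387-33686416, minus strand: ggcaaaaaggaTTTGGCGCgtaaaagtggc
CDT1, chr16:88803743-88803772, plus strand: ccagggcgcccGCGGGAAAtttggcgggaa

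The MCM6 matches shown begin 152 and 90 bases before the start, and their overlapping partners 148 and 86 bases before it. Those of POLA1 and TYMS begin 137 and 39 bases before the start. In MCM7, E2F1 and CDT1 the matches shown begin 9, 20 and 35 bases before the start. The same letters thus stood in promoters of genes that fell and of genes that were not lower. Both knockouts lay below both controls for 13 of the 17 members with a match and for 7 of the 12 without one, where 39.0% of all tested genes had this order. The median log2 fold change was -0.35 with a match and -0.11 without, given as a description. For CCAAT, the site of NF-Y, 17 of 29 members had a match (58.6%), against 39.7% of genes. The split was the same as for E2F, with 13 of these 17 and 7 of the 12 without CCAAT having both knockouts below both controls. Median log2 fold changes were -0.29 with CCAAT and -0.15 without. Many members, among them MCM6, PCNA and POLA1, held both motifs. The splits by E2F and by CCAAT are thus not independent and cannot be told apart here. TTTGAA, the CHR element, was found in 1 of the 29 members (3.45%), against 18.2% of genes.

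The targeted gene was lower in both knockout libraries, where DEK mRNA measured 31.4 and 15.7 TPM, against 95.02 and 76.3 TPM in controls. Markers of the line were present in all 4 libraries, but not all 6 were level between the groups. PAX8 was at 140.1 to 160.4 TPM and VIM at 7215 to 8346 TPM. CA12, a carbonic anhydrase, stood at 28.5 and 28.98 TPM in controls and 194 and 215 TPM in knockouts. KRT18 was at 208 and 204 TPM against 267 and 285 TPM, and EPAS1 at 67.3 and 66.9 TPM against 84.4 and 77.7 TPM. CDH6 stood the other way, at 121 and 113 TPM against 89.04 and 76.5 TPM. The summed level of 3 leukocyte markers was 0 to 0.116 TPM, with CD3E at 0 in every library, and that of 2 endothelial markers 0.0140 to 0.0644 TPM. The 3 fibroblast markers summed to 2.25 to 3.03 TPM. Depth, estimated from the steps between low TPM values, was 35.8 to 40.1 per library in units of 1000000 reads, and each member had at least about 154 reads in every library.

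Replication genes as a group were modestly lower in the knockouts, and 5 of the 33 members fell past the test: MCM6, TYMS, POLA1, ORC1 and CCNE2 (limma, Benjamini-Hochberg adjusted p under 0.05 over all tested genes). No member rose past it, with 1 member, RFC2, higher at an unadjusted p under 0.05. Lower at an unadjusted p under 0.05 were 16 members, against 21.4% of all tested genes. Among all tested genes 8.67% fell and 9.06% rose, and the members' 15.2% that fell was a count of 5 genes. Both knockouts lay below both controls for 24 members (72.7%), against 39.0% of all tested genes, and above both for 4 members, against 29.2%. A log2 fold change below 0 was found for 27 members (81.8%), against 55.6% of all tested genes, and 8 members that were lower had an adjusted p from 0.05 to 0.10, against 8.67%. The median log2 fold change on the log2(TPM + 1) scale was -0.26 over the members and -0.06 over all tested genes. The summed level of all members was 3050.4 and 2999 TPM in the controls and 2629 and 2453 TPM in the knockouts. These are small differences next to that of DEK, whose log2 fold change was -1.89 (SE 0.33, limma adjusted p = 0.030).

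**Figure D1:**
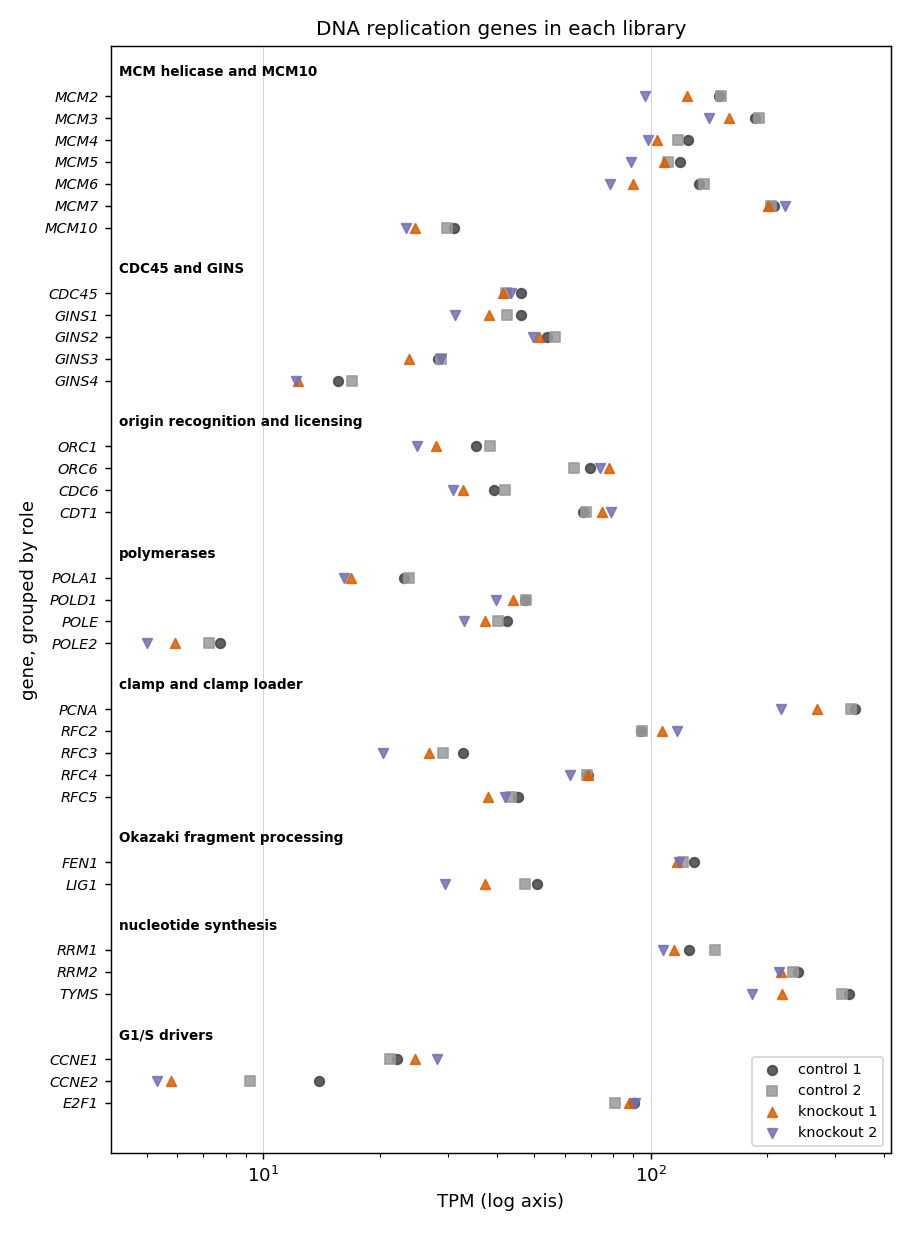
TPM on a log axis of each of the 33 members, grouped by role, with 1 symbol per library. Levels range from about 5 TPM for CCNE2 and POLE2 in knockout 2 to 337 TPM for PCNA in control 1, and for 24 members both knockout symbols lie left of both control symbols.

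Without either control library no gene in the whole table passed the adjusted threshold, DEK and the members included. The members' median log2 fold change was -0.21 without control 1 and -0.27 without control 2. Without knockout 1 the members' count was 15 falling and 3 rising, against 18.0% and 15.4% of all tested genes, and without knockout 2 it was 5 and 0, against 8.40% and 8.42%. Over 16 alternative fits the call was lost in 3 for MCM6, in 4 for TYMS and in 9 for POLA1 and for ORC1. CCNE2 lost it in 11. No sign changed in these 5 genes, although some of the fits alter only the test and cannot change a sign.

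Among the MCM helicase genes 1 fell past the test, several were lower without passing it and 1 had overlapping groups. Of all tested genes 8.67% fell, and 39.0% had both knockouts below both controls. The differences between these genes were not tested. MCM6 (chromosome 2, 135839626 to 135876426, minus strand, GRCh38) encodes a subunit of the ring. It measured 134 and 138 TPM in controls, against 90.1 and 78.4 TPM in knockouts. The knockout values were thus 33.6% and 42.2% below the control mean, with no overlap. The group means were 136 ± 2.93 and 84.3 ± 8.28 TPM (SD, n = 2 a group; log2 fold change -0.68, SE 0.091, limma adjusted p = 0.020).

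MCM2, the subunit that also binds histones, had control values of 151 and 152 TPM and knockout values of 124 and 96.4 TPM. Its knockout values were far apart and its difference, a log2 fold change of -0.46, missed the threshold (SE 0.13, limma adjusted p = 0.072). MCM3 stood at 186 and 191 TPM in the control libraries and 159.7 and 141 TPM with DEK knocked out (limma adjusted p = 0.059). MCM4 measured 125 and 117 TPM in controls, against 104 and 98.7 TPM in knockouts (limma adjusted p = 0.073). In both of these subunits the knockouts lay below the controls, by 15.1% and 24.8% of the control mean in MCM3 and by 14.2% and 18.5% in MCM4. MCM5 stood at 119 and 111 TPM against 108 and 89.0 TPM, with knockout 1 only 5.58% below the control mean. Its log2 fold change was -0.22, with a 95% interval from -0.52 to 0.08 (limma adjusted p = 0.22).

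MCM7 was the only ring gene whose groups overlapped. Its level was 208 and 204 TPM in the controls and 200.4 and 222 TPM in the knockouts, which overlap. The log2 fold change was 0.03, with a 95% interval from -0.16 to 0.23, and it was below 0 without knockout 2 (-0.040). The ratio of MCM7 to MCM6, compared after their values were seen, was 1.56 and 1.48 in controls, against 2.22 and 2.83 in knockouts. MCM6 made up 14.5% and 15.1% of the summed TPM of the 6 ring genes in controls, and 11.5% and 10.8% in knockouts. The sum itself was 922 and 913 TPM in the controls and 787 and 726 TPM in the knockouts. MCM10, a separate protein that helps to start the assembled helicase, had control values of 31.2 and 29.8 TPM and knockout values of 24.6 and 23.4 TPM (log2 fold change -0.33, SE 0.089, limma adjusted p = 0.063).

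**Figure D2:**
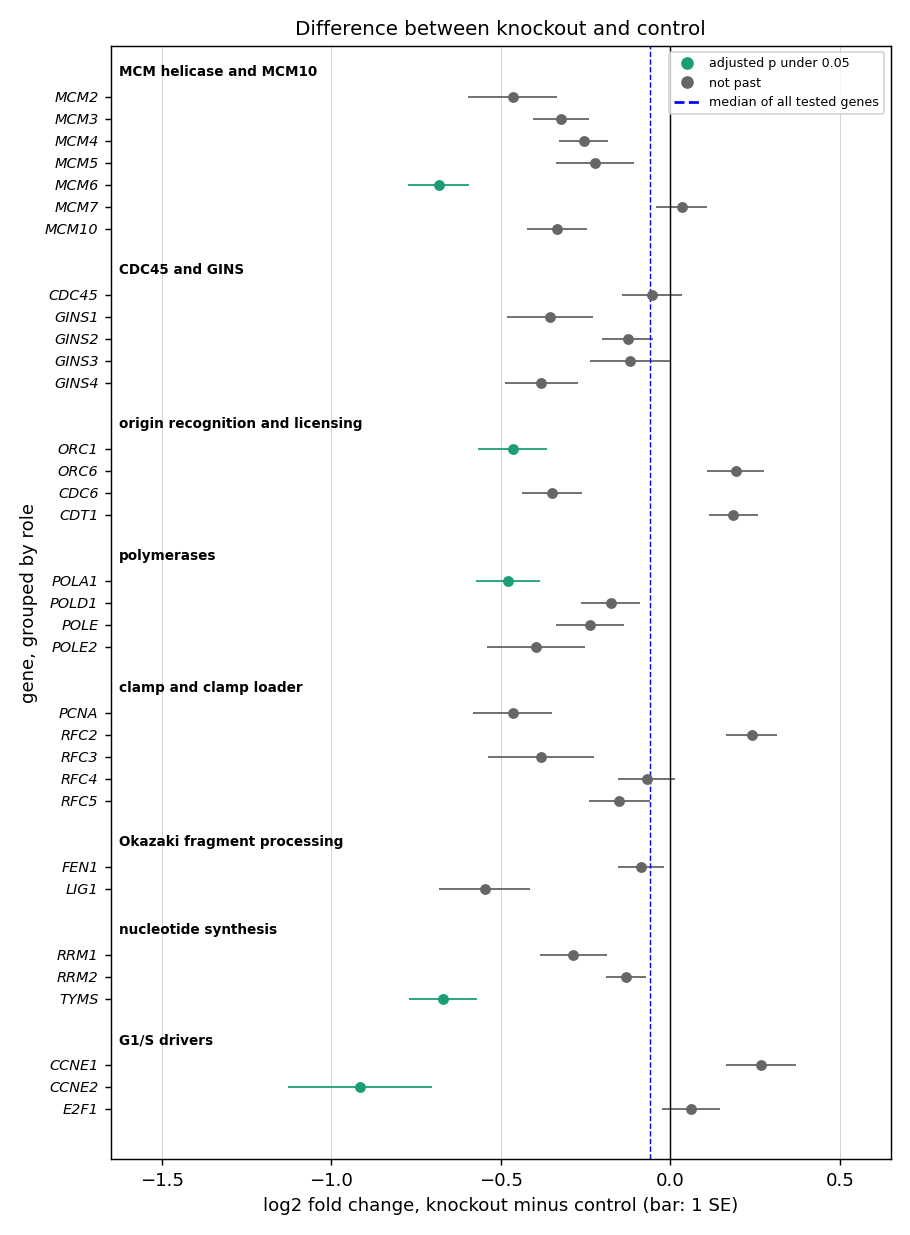
Log2 fold change of each member, knockout minus control on the log2(TPM + 1) scale, with bars of 1 SE from limma (2 libraries per group). Green points passed an adjusted p of 0.05, grey points did not, and the dashed line is the median of all tested genes, -0.06. MCM6, TYMS, POLA1, ORC1 and CCNE2 are green, and 6 members lie to the right of 0, of which MCM7 and E2F1 move below 0 with the GC trend removed (-0.062 and -0.057).

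The partners that turn the ring into a working helicase did not pass the test. All 5, CDC45 and 4 GINS subunits, had a log2 fold change below 0, from -0.38 to -0.05, as did 55.6% of all tested genes. That of CDC45 turned, however, to 0.0051 with median ratio scaling and that of GINS3 to 0.012 with the GC trend removed. GINS4 stood at 15.6 and 16.9 TPM in the control libraries and 12.3 and 12.1 TPM with DEK knocked out, so the replicates were close together and the groups apart (log2 fold change -0.38, SE 0.11, limma adjusted p = 0.071). GINS1 measured 46.4 and 42.7 TPM in controls, against 38.3 and 31.2 TPM in knockouts. GINS2 differed less, with 54.1 and 56.5 TPM against 51.5 and 49.8 TPM. GINS3 had a knockout 2 value of 28.7 TPM within the range of the controls, 28.2 to 28.7 TPM, and a lower knockout 1 value of 23.8 TPM. CDC45 varied as much between controls, at 46.4 and 42.2 TPM, as between groups, with the knockouts at 41.6 and 43.6 TPM (log2 fold change -0.05, 95% interval -0.28 to 0.18).

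Genes of origin recognition and licensing had knockout values on either side of the controls. ORC1 (chromosome 1, 52372829 to 52404459, minus strand), the largest subunit of the origin recognition complex, had control values of 35.3 and 38.4 TPM and knockout values of 27.9 and 25.0 TPM. Its mean fell to 26.5 ± 2.08 from 36.9 ± 2.17 TPM (SD, n = 2 per group; log2 fold change -0.46, SE 0.10, limma adjusted p = 0.044). The call ended without knockout 2 (-0.39, limma adjusted p = 0.060) and with median ratio scaling (-0.41, limma adjusted p = 0.067). ORC6, the smallest subunit of the same complex, was higher in both knockouts, with 78.1 and 73.9 TPM against control values of 69.5 and 63.3 TPM, without passing the test (limma adjusted p = 0.16). CDC6, the loader ATPase, stood at 39.4 and 42.1 TPM in the control libraries and 32.7 and 30.8 TPM with DEK knocked out (limma adjusted p = 0.057). CDT1, which brings the MCM ring to the origin, measured 66.7 and 68.1 TPM in controls, against 74.7 and 79.1 TPM in knockouts (log2 fold change 0.19, 95% interval -0.0036 to 0.38, limma adjusted p = 0.14). Within licensing, then, ORC1 and CDC6 stood lower and ORC6 and CDT1 higher in both knockout libraries, and only ORC1 passed. Of all tested genes 39.0% had both knockouts below both controls, 29.2% had both above, and 8.67% fell past the test.

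Among the replicative polymerases all 4 members had both knockouts below both controls, as did 39.0% of all tested genes, and 1 passed, where 8.67% of all tested genes fell. POLA1 (chromosome X, 24693919 to 24996986, plus strand), the catalytic subunit of the priming polymerase alpha, had control values of 23.0 and 23.7 TPM and knockout values of 16.8 and 16.2 TPM. Its replicates agreed closely, and its mean fell to 16.5 ± 0.492 from 23.4 ± 0.499 TPM (SD, n = 2 a group; log2 fold change -0.48, SE 0.094, limma adjusted p = 0.037). POLE, the catalytic subunit of the leading-strand polymerase, stood at 42.6 and 40.4 TPM in the control libraries and 37.4 and 32.9 TPM with DEK knocked out. POLE2, its second subunit and the least expressed member in the controls, was at 7.72 and 7.23 TPM against 5.90 and 5.00 TPM. POLD1, the catalytic subunit of polymerase delta, differed least of these, with 47.3 and 47.8 TPM in the controls and 44.1 and 39.9 TPM in the knockouts (log2 fold change -0.18, 95% interval -0.40 to 0.05).

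The PCNA clamp and the subunits of its loader stood on both sides of the controls. PCNA, the most abundant member, measured 337 and 329.6 TPM in controls, against 269 and 216 TPM in knockouts. Both knockouts were lower, by 19.4% and 35.1% of the control mean, with a wide distance between them, and the log2 fold change of -0.47 was just outside the threshold (SE 0.12, limma adjusted p = 0.056). RFC3 had control values of 32.7 and 29.05 TPM and knockout values of 26.8 and 20.4 TPM. RFC2 stood the other way, at 94.3 and 94.9 TPM in the controls and 107 and 117 TPM in the knockouts (log2 fold change 0.24, SE 0.075, limma adjusted p = 0.086). RFC4 overlapped between groups, at 68.9 and 68.3 TPM against 68.9 and 62.0 TPM (log2 fold change -0.07, 95% interval -0.29 to 0.15), and RFC5 was at 45.3 and 43.6 TPM against 37.9 and 42.1 TPM. The sum over RFC2 to RFC5 was 241 and 236 TPM in the controls and 240.9 and 241 TPM in the knockouts, which overlap.

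Neither of the enzymes that finish Okazaki fragments passed the test, and the difference between them was not tested. LIG1, the ligase that seals nicks between fragments, stood at 50.8 and 47.3 TPM in the control libraries and 37.4 and 29.5 TPM with DEK knocked out. Both knockouts were lower, knockout 2 by 39.9%, and the log2 fold change of -0.55 missed the threshold (SE 0.14, limma adjusted p = 0.055). FEN1, the flap nuclease, measured 129 and 121 TPM in controls, against 117 and 118 TPM in knockouts, with a 95% interval of the log2 fold change from -0.26 to 0.09.

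In nucleotide synthesis the thymidylate enzyme fell and the reductase subunits were lower by less. TYMS (chromosome 18, 657604 to 673578, plus strand), which makes thymidylate from deoxyuridylate, had control values of 325 and 312 TPM and knockout values of 218 and 183 TPM. Its mean fell to 200.5 ± 24.5 from 319 ± 9.17 TPM (SD, n = 2 a group; log2 fold change -0.67, SE 0.10, limma adjusted p = 0.023). ENOSF1, on the opposite strand and overlapping its end, stood at 20.3 and 18.0 TPM in the control libraries and 13.6 and 12.9 TPM with DEK knocked out. The part of ENOSF1 in the TYMS values was not tested. RRM1, the large subunit of ribonucleotide reductase, measured 126 and 147 TPM in controls, against 115 and 108 TPM in knockouts. RRM2, its small and cell cycle-regulated subunit, was at 240.0 and 234 TPM against 217 and 215 TPM (log2 fold change -0.13, 95% interval -0.29 to 0.02). For both reductase subunits the groups were apart, but the difference was close to the spread between controls in RRM1.

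The drivers of S phase entry gave opposite readings for the cyclin E genes. CCNE2 (chromosome 8, 94879770 to 94896678, minus strand), encoding cyclin E2, had control values of 13.9 and 9.25 TPM and knockout values of 5.78 and 5.31 TPM. The controls were far apart and the knockouts close together, with no overlap. INTS8, overlapping CCNE2 by 1977 bases on the opposite strand, had 22.8 and 21.3 TPM in controls and 18.5 and 15.7 TPM in knockouts. NDUFAF6, overlapping CCNE2 by 912 bases on that strand, had 8.97 and 9.34 TPM against 9.82 and 10.1 TPM. The part of either in the CCNE2 values was not tested. The CCNE2 mean fell to 5.55 ± 0.329 from 11.6 ± 3.28 TPM (SD, n = 2 a group; log2 fold change -0.92, SE 0.21, limma adjusted p = 0.049), the largest in size among the members. The call ended without knockout 1 (-0.97, limma adjusted p = 0.062), without knockout 2 (-0.87, limma adjusted p = 0.106) and with median ratio scaling (-0.86, limma adjusted p = 0.053). CCNE1, encoding cyclin E1, stood at 22.1 and 21.3 TPM in the control libraries and 24.7 and 28.03 TPM with DEK knocked out, higher in both, without passing the test (log2 fold change 0.27, SE 0.10, limma adjusted p = 0.13). Their ratio, CCNE1 to CCNE2, was 1.59 and 2.30 in controls, against 4.28 and 5.28 in knockouts, a comparison made after the values were seen. E2F1, a transcription factor of S phase genes, measured 90.7 and 81.0 TPM in controls, against 87.8 and 91.1 TPM in knockouts, with a 95% interval of the log2 fold change from -0.16 to 0.28.

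The knockout libraries were not equal. Of the 33 members 24 (72.7%) were lower in knockout 2 than in knockout 1, where 49.5% of all tested genes were. The median of the members against the control mean was -0.22 in knockout 1 and -0.33 in knockout 2 on the log2 scale. DEK mRNA was also lower in knockout 2. The gap was wide in MCM2, PCNA, LIG1, MCM5, GINS1 and RFC3, each lower in knockout 2. GINS3 stood the other way, 16.4% below the control mean in knockout 1 and 0.94% above it in knockout 2. CCNE1 was also higher in knockout 2, at 29.2% above the control mean, against 13.9% in knockout 1. In MCM2 knockout 1 was 18.0% and knockout 2 36.3% below the control mean, and in RFC3 the values were 13.0% and 33.9%. POLA1, CCNE2, GINS4 and RRM2 showed nearly the same change in both libraries.

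**Figure D3:**
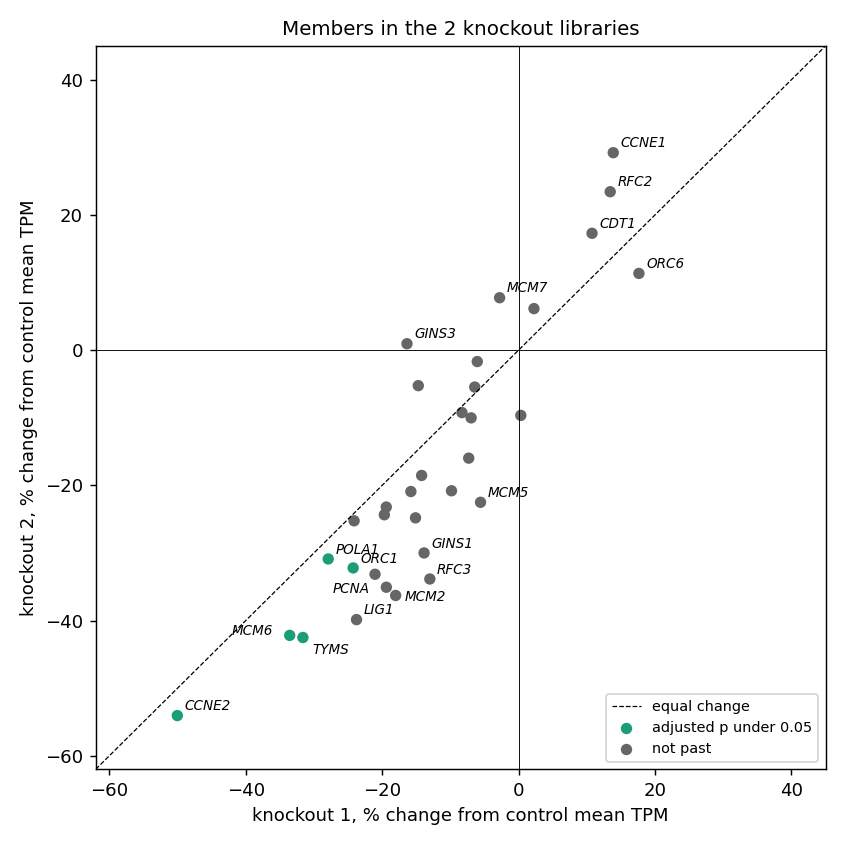
Percent change of each member from the control mean TPM in knockout 1 (horizontal) and knockout 2 (vertical), with equal change dashed and the 5 members past the test in green. CCNE1, RFC2, CDT1, ORC6 and E2F1 lie above 0 in both libraries, E2F1 only slightly. Most others lie below 0 and under the dashed line, such as PCNA at -19.4% and -35.1%.

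Whole chromosomes also differed between the groups and between the knockout libraries, which touches members on those chromosomes. The median log2 difference from the control mean over tested genes of chromosome 22 was 0.19 in knockout 1 and 0.26 in knockout 2. MCM5 and CDC45 lie there, and relative to that median their log2 fold changes were -0.45 and -0.28 in place of -0.22 and -0.05. On chromosome 7, home of MCM7 and RFC2, the median was -0.18 in knockout 1 and 0.02 in knockout 2, and relative to it the values were 0.11 for MCM7 and 0.32 for RFC2 (limma adjusted p = 0.038), which makes RFC2 the only member to rise in that fit. Chromosome 1 had medians of -0.10 and -0.26, and ORC1, which lies there, had -0.29 relative to them (limma adjusted p = 0.085).

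The members' transcripts had a median GC content of 48.5%, against 48.6% for all tested genes with a value, but ranged from 36.9% in CCNE2 to 64.97% in POLD1. With the GC trend of each library removed, CCNE2 went to -0.54 (limma adjusted p = 0.076) and RFC3 to -0.07, while LIG1 was at -0.64 and MCM2 at -0.56. MCM6 and TYMS passed with the chromosome medians removed (-0.58 and -0.55, limma adjusted p = 0.018 and 0.029) and with the GC trend removed (-0.54 and -0.69, limma adjusted p = 0.025 and 0.028). The levels of these members thus stayed lower in each of those fits. POLA1 was also lower in both, at -0.37 and -0.32, but passed in neither (limma adjusted p = 0.051 and 0.063). ORC1 passed with the GC trend removed (-0.50, limma adjusted p = 0.046) but not with the chromosome medians removed.

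**Figure D4:**
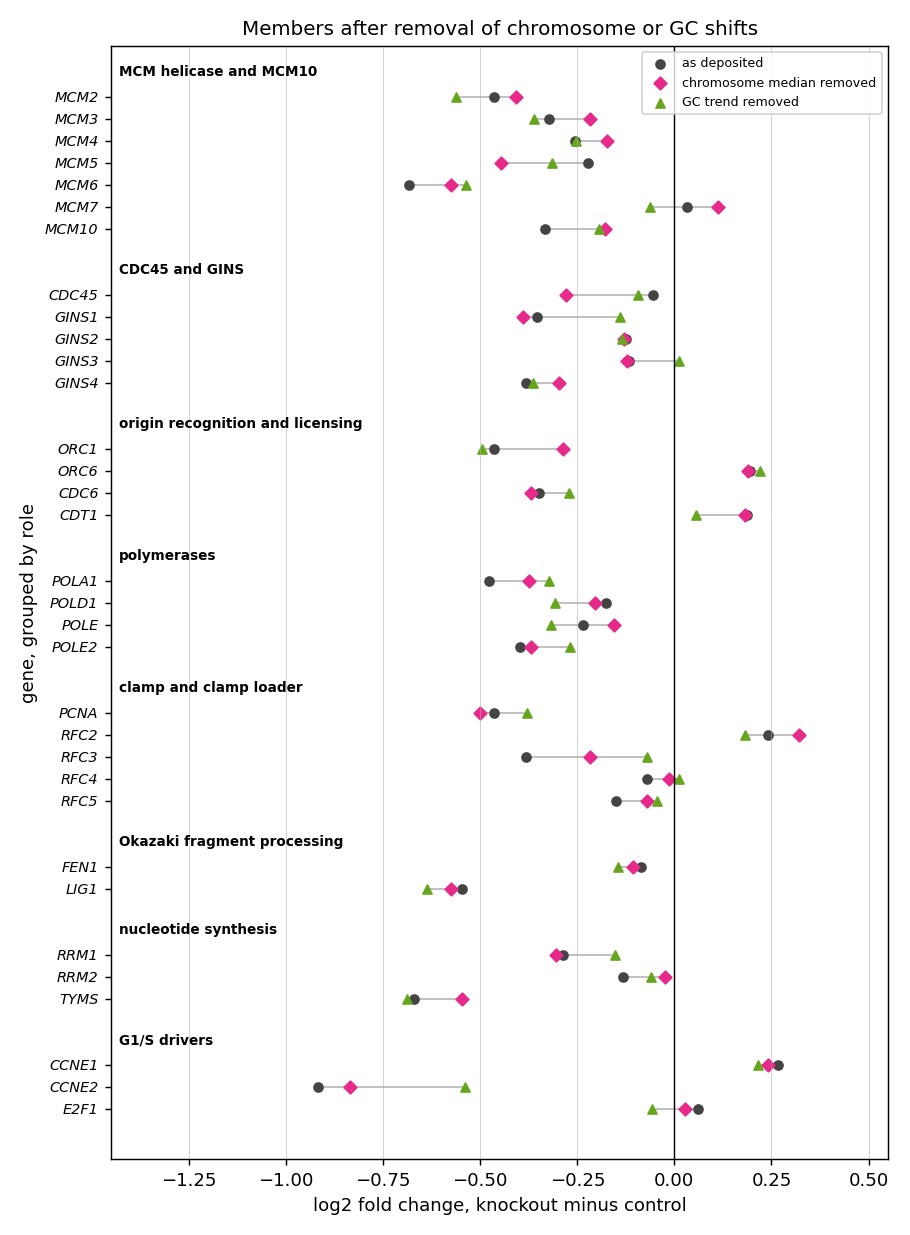
Log2 fold change of each member as deposited (circles), with each library's chromosome medians removed (diamonds) and with its GC trend removed (triangles). MCM5 and CDC45 move left with the chromosome medians removed, RFC2 moves right to 0.32, and CCNE2 moves from -0.92 to -0.54 with the GC trend removed.

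A list of 65 other genes of the replication pathway, all of them tested, had 12 that fell and 4 that rose in the same fit, where 8.67% of all tested genes fell and 9.06% rose. Its median log2 fold change was -0.28, against -0.06 over all tested genes. GMNN, which encodes geminin, the inhibitor of CDT1, had control values of 88.0 and 86.6 TPM and knockout values of 51.9 and 55.2 TPM (log2 fold change -0.69, SE 0.074, limma adjusted p = 0.016). CDT1 was meanwhile slightly higher, and the ratio of CDT1 to GMNN mRNA, compared after the values were seen, went from 0.758 and 0.786 to 1.44 and 1.43. DTYMK, the thymidylate kinase that acts after TYMS, fell as well, with 292 and 292 TPM in the controls and 208 and 210.1 TPM in the knockouts.

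POLD2, a subunit of polymerase delta, measured 180.0 and 167 TPM in controls, against 112 and 113 TPM in knockouts, a fall of 0.62 on the log2 scale, while the small subunit POLD4 rose from 13.7 and 13.0 TPM to 21.7 and 26.8 TPM. The polymerase epsilon subunit POLE4 rose as well, from 17.4 and 18.3 TPM to 27.2 and 29.4 TPM, next to the lower values of POLE and POLE2. UHRF1, which couples replication to DNA methylation, fell from 77.3 and 71.6 TPM to 48.2 and 47.2 TPM. E2F8 and E2F7, repressors of E2F targets, went apart, with E2F8 at 15.1 and 12.9 TPM in the controls and 6.63 and 6.32 TPM in the knockouts, and E2F7 at 21.5 and 21.05 TPM against 34.2 and 44.4 TPM. Both passed the test. TOP1, the topoisomerase that relieves twist ahead of the fork, rose from 90.7 and 93.6 TPM to 124 and 139.6 TPM.

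**Figure D5:**
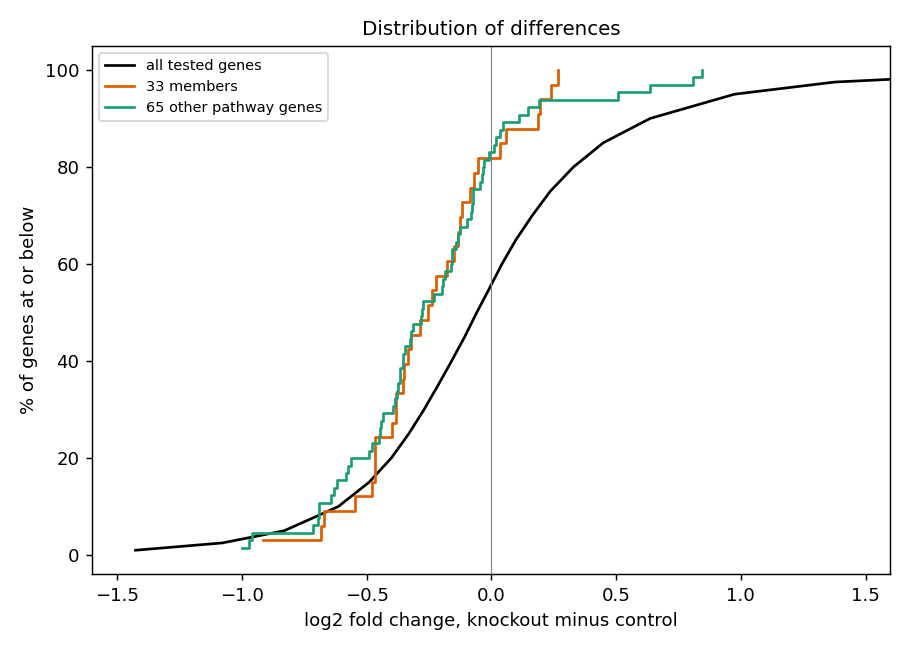
Percent of genes at or below each log2 fold change (knockout minus control) for all 15815 tested genes, the 33 members and the 65 other pathway genes. The median is -0.26 for the members and -0.28 for the other pathway genes, and both curves lie left of the curve of all tested genes over most of the range.

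Genes that mark or brake the cell cycle were read beside these values. CDKN1A, which encodes p21, an inhibitor of cyclin E with CDK2 and a binding partner of PCNA, had control values of 324 and 315 TPM and knockout values of 732 and 739 TPM (log2 fold change 1.20, SE 0.056, limma adjusted p = 0.0057). MKI67, a marker of cycling cells, stood at 107 and 99.2 TPM in the control libraries and 91.2 and 79.9 TPM with DEK knocked out (log2 fold change -0.27, SE 0.095, limma adjusted p = 0.11). The part of either in the members' values was not tested.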

How the data were processed

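Polyadenylated RNA of 4 libraries of 786-O cells was measured, 2 controls and 2 DEK knockouts, grouped by title. The authors deposited 1 table of TPM, with each column summing to 1000000. Per the submitters' processing notes the tools were STAR 2.7.8a, cutadapt 1.18, DESeq2 1.36.0 and featureCounts 2.0.1, with the build hg38 and no roles stated. For the annotation and strand setting, the sources used here give nothing.

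The 15815 genes that reached 1 TPM in 2 or more libraries were fitted as log2(TPM + 1) with limma 3.58.1 in R 4.3.3 (term: group; variance prior with a trend on mean level), with Benjamini-Hochberg adjustment and a threshold of 0.05. No exact permutation test was run, because 2 against 2 allows no p under 0.333. Fold changes on this scale understate those of low genes.

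Positions and GC came from GENCODE release 29 (GRCh38), matched by symbol. Read numbers are approximate, from TPM steps and that release's exon lengths, since only 53.9% to 55.8% of estimates below 200 reads came out whole (tolerance 0.02). Of the members, 18 overlap another annotated gene. Members and lists were chosen with earlier results of these data known. Members past the threshold, and in each complex those of largest and smallest change, were given full statistics, and the other pathway genes named are from the 8 with the smallest p, of which 1 is not reported here. POLD4, E2F7, the ratios and the promoter matches shown were picked after values were seen. Planned MCM protein sequences were not used here. Alternatives covered the pseudocount, filter, scaling, variance prior, threshold, replicate block, chromosome medians, GC trend and each library left out.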

Additional observations from a re-analysis of the deposited data

How the results depend on the processing

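With 2 libraries per group, the number of members past the threshold depended on most settings. The median of the members was between -0.33 and -0.19 on the log2 scale over the 16 alternative fits. The changed filters, the constant variance prior and the replicate block cannot change a member's log2 fold change. Their agreement with the reported median was thus fixed in advance. The number of members that fell, 5 as reported, was 10 with a filter of 5 TPM, 8 with TPM computed without genes of the mitochondrial genome, 3 each with median ratio scaling, quantile normalization, the GC trend removed, and the GC trend and chromosome medians removed together (added after the data were seen), 2 with chromosome medians removed, 1 with a constant variance prior, and 0 with no filter on low values (15 at an unadjusted p under 0.05) or at an adjusted p of 0.01. One member, RFC2, rose with chromosome medians removed. With single libraries left out the members that fell ranged from 0 to 15 and those that rose from 0 to 3. For the other pathway genes the falls ranged from 0 to 25 and the rises from 0 to 5 with single libraries left out. Their falls were 7 with median ratio scaling and 5 with a constant prior, and their rises 2 with the latter. Both were 0 with no filter and at 0.01. Over all genes, rises ranged from 0 to 2443 and falls from 0 to 2846 with single libraries left out. They were 26 and 0 with no filter (3663 lower at an unadjusted p under 0.05), 866 and 571 with a constant prior, and 80 and 10 at 0.01. Median ratio scaling gave 1588 rises and 955 falls and removal of chromosome medians 1730 and 1082, against 1433 and 1371. The filter of 5 TPM gave 1598 falls among 10966 tested genes, against 1371 among 15815 as reported. Leaving out the mitochondrial genome gave 1643 among 16369. In both of these fits, where more members fell, the share of all tested genes that fell was thus also higher. Quantile normalization gave 1179 falls among 15815 genes. Removing the GC trend gave 1131 among 15637, and removing chromosome medians as well gave 1279 among 15584.

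The labels give no link between libraries of the same number, whose deviations correlated at 0.099, and with the replicate block 5 members fell, LIG1 and PCNA in place of ORC1 and POLA1, in a table of 1423 rises and 1548 falls. Over 528 pairs of a member and an alternative, 36 lost and 27 gained a call and 13 changed sign, all in 5 members that did not pass as reported. MCM7 ranged from -0.040 to 0.11 with single libraries left out (below 0 without knockout 2), and was at -0.062 with the GC trend removed and -0.043 with GC and chromosome medians removed. E2F1 ranged from -0.020 (without control 2) to 0.14 and was at -0.057 and -0.11 in those fits. GINS3 ranged from -0.25 to 0.013 (without knockout 1) and was at 0.012 and 0.020. CDC45 ranged from -0.12 to 0.012 (without control 1) and was at 0.0051 with median ratio scaling. RFC4 ranged from -0.14 to 0.0046 (without knockout 2) and was at 0.011 with the GC trend removed. The cause of these changes was not tested. MCM6 lost its call with no filter and without either control. The lowest estimated read numbers, where counting error is largest, were about 154 in POLE2 and 236 in CCNE2.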
